A study of Mus musculus with 16 samples.

Results

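The 10 early response genes of the EGR, IER, KLF and DUSP families are described here across mouse bone marrow libraries: Egr1, Egr2, Egr3, Ier2, Ier3, Ier5, Klf2, Klf4, Klf6 and Dusp1. They were found by matching the Ensembl gene IDs of the deposited count table to GENCODE M21 symbols, which gave all 10 members among 45706 gene IDs. The table held 16 libraries in 6 groups. Libraries labelled Gata2 and wild type (WT) were compared at Day0 (3 Gata2, 2 WT) and at Day2 (2 Gata2, 3 WT) in LSK cells, a lineage-negative, Sca-1 and c-Kit positive compartment of marrow in which stem and multipotent cells are found. At Week2 the label changes to CD45.2 marrow cells (3 Gata2, 3 WT), CD45.2 being a leukocyte antigen allele commonly used to mark donor blood cells. The study's title and design text concern GATA2 haploinsufficiency, challenged by transplanting small numbers of LSK cells into lethally irradiated WT mice. The labels give neither the Gata2 allele nor the age of the animals, and they do not say what the LSK cells met in the days between. They also do not tie libraries to animals, so the spread behind each p-value may be technical only.

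Read totals ran from 19618830 to 68305582 per library at Day0, 51693938 to 54807949 at Day2 and 176933583 to 320717267 at Week2. Levels are given as CPM, read counts brought to a common library size with TMM scaling, which adjusts each library total for its composition. Gata2 itself, a transcription factor of stem cells and early progenitors, had 611, 752 and 677 CPM in the Day0 libraries labelled Gata2, against 446 and 329 CPM in Day0 WT. At Day2 it had 491 and 737 CPM in the libraries labelled Gata2, against 291, 262 and 259 CPM in WT. Gata2 was thus not lower in the LSK libraries labelled Gata2, and edgeR called neither difference (quasi-likelihood test, adjusted p = 0.341 at Day0 and 0.207 at Day2), so every genotype direction below refers to the label. The first Day0 WT library stands apart: it had the lowest total and 2.01% of reads from mitochondrial genes, against 0.641% in the other Day0 WT library, and the pair correlated at 0.911, while replicates in the other 3 LSK groups correlated at 0.989 or more. All 8 stem and LSK markers were detected in each LSK group, with Kit at 409 to 716 CPM, against 16.7 to 60.8 CPM at Week2.

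All 10 genes are protein coding. Of the 10, 9 have at most 4 exons in their longest coding transcript, while 33.1% of 21190 protein-coding genes with a count do, with a median of 7 exons. Ier2 and Ier5 have 1 exon, and Klf4 has 5. In mm10 the genes lie on 8 chromosomes. Egr1 spans chr18:34859823-34864984, Egr2 chr10:67535475-67542188 and Egr3 chr14:70077203-70082614, all on the plus strand. Ier2 spans chr8:84661331-84662852 on the minus strand, Ier3 chr17:35821684-35822923 on the plus strand and Ier5 chr1:155096361-155099636 on the minus strand. Klf2 spans chr8:72319033-72321656 on the plus strand, Klf4 chr4:55527143-55532466 on the minus strand and Klf6 chr13:5861482-5870394 on the plus strand. Dusp1 spans chr17:26505590-26562128 on the minus strand, a span that also holds Ergic1 and Gm8225 on the other strand. No source used here gives the strand setting of the counting, and Dusp1 may share reads with those genes.

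Early response genes are transcribed within minutes of a stimulus without new protein synthesis, largely through kinase signals that reach transcription factors already bound to their promoters. The EGR proteins are zinc finger transcription factors, the KLF proteins are zinc finger factors that bind GC-rich and CACCC-type sequences, the IER proteins are a mixed group named for their early induction, and DUSP1 is a phosphatase that switches MAP kinases off. In mouse blood stem cells EGR1 is known to restrain division and to help retain the cells in the marrow. KLF2 holds resting lymphocytes quiescent, and KLF4 takes part in monocyte differentiation. Tissue dissociation and sorting are known to raise transcripts of this kind.

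Promoter sequence was taken from RefSeq's GRCm38.p6 table, in which 7 of the 10 genes matched. Egr1, Egr3 and Ier2 had no match there, so their promoters were not searched. The 250 bases before the annotated start were searched on both strands for the CArG box (bound by SRF), the cAMP response element TGACGTCA, its core TGACG, the AP-1 site TGANTCA, the EGR site GCGNGGGCG, the GC box GGGCGG, the KLF-type site CACCC, the NF-kB site and the ETS site CCGGAA, and on the gene's strand for TATAAA. Matches describe letters only. The 4 windows shown begin with the gene of the largest fall over time and the gene of the lowest p between the labels at Day2. Next comes the only gene of the 7 searched with a CArG box. The last is the KLF member with the lowest Day2 to Day0 ratio in the libraries labelled Gata2. The 4 windows lie at chr17:26508520-26508722 (minus strand, Dusp1), chr17:35821463-35821683 (plus, Ier3), chr10:67537619-67537868 (plus, Egr2) and chr8:72318812-72319032 (plus, Klf2). Annotated exon bases at the downstream end were left out. Capitals mark matches to the CArG box, the cAMP response element or its core, the EGR site and the NF-kB site.
Dusp1: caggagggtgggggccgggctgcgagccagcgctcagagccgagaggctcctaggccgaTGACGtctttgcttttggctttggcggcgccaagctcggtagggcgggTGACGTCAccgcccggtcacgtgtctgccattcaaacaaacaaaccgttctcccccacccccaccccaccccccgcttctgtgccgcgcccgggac
Ier3: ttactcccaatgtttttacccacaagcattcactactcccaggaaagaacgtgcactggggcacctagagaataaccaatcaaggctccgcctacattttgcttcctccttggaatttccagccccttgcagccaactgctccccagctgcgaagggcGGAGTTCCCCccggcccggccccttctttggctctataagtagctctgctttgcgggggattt
Egr2: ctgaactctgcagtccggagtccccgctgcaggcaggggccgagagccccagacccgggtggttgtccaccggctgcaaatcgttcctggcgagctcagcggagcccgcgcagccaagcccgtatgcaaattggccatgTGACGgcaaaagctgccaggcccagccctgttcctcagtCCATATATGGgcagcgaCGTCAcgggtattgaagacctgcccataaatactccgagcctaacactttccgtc
Klf2: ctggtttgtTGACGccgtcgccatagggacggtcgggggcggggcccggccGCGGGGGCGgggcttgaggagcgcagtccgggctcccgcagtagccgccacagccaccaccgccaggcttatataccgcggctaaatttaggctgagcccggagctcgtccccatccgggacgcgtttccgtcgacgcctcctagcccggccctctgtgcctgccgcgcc

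The Dusp1 window held TGACGTCA 143 bases before the start, a match found in 1.55% of 32851 windows of the same length, and a further TGACG 191 bases before it. The Egr2 window held the CArG box at 72 bases, found in 1.47% of windows, with TGACG at 111 and 55 bases. The gene was shown because of its CArG box, so that share does not measure how unusual the match is. The printed window was one of 5 annotated Egr2 windows. Those at chr10:67537620-67537869 and chr10:67537680-67537929 overlap it and hold the same CArG box. The window at chr10:67537316-67537565 held a different CArG match, CCTTTTTTGG, 72 bases before its own start. The window at chr10:67535249-67535498 had no CArG box, and it held 4 matches to GGGCGG and 2 to the NF-kB site. An NF-kB site lay 92 bases before the Ier3 start, against 7.25% of windows. Klf2 had 1 match to GCGNGGGCG and Klf4 had 2, against 4.7% of windows, each overlapping the GC box GGGCGG, which 32.7% of windows hold. Klf2 and Klf4 also had 1 TGACG each, against 17.8% of windows. CACCC, which 52% of windows hold, had 5 matches in Dusp1 and 1 each in Egr2 and Klf2. In the Ier5 and Klf6 windows the only matches were to GGGCGG.

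**Figure D1:**
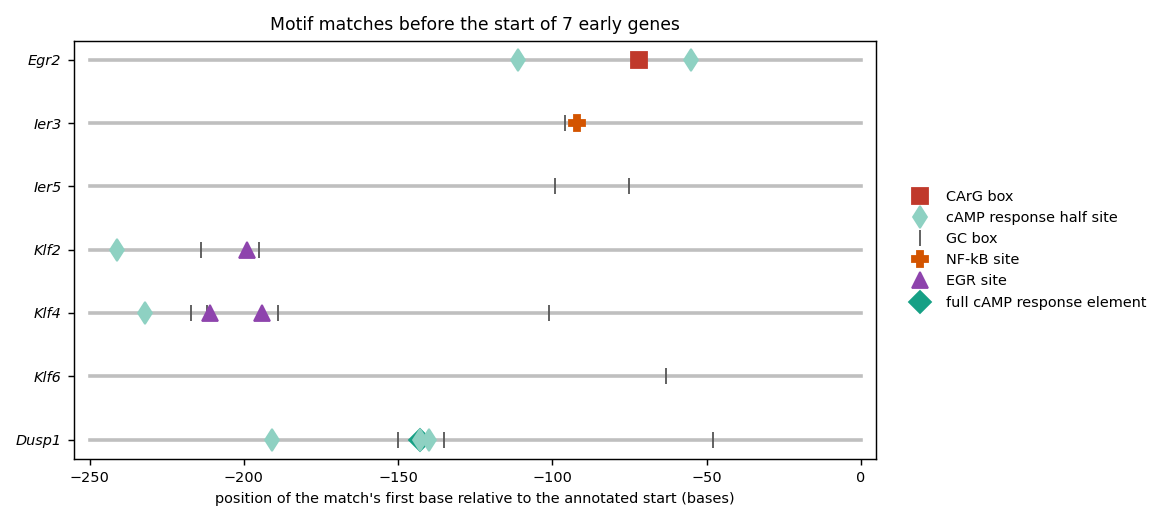
Motif matches in the 250 bases before the annotated start of 7 genes, with 1 row per gene; the x axis is the distance of a match's first base from the start in bases, and symbols mark the motif. The CArG box stands in the Egr2 row and TGACGTCA in the Dusp1 row. GCGNGGGCG stands in the Klf2 and Klf4 rows and the NF-kB site in the Ier3 row. All rows but Egr2 hold the GC box, and the Egr2 row covers only the window printed above.

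Compared per kilobase of exon, the 10 genes differed widely in level. In Day0 LSK cells Ier2 was highest, at 632 ± 93.5 CPM per kb in libraries labelled Gata2 and 713 ± 222 CPM per kb in WT (SD, n = 3 and 2). Dusp1 followed with 228 ± 65.9 and 281 ± 62.0 CPM per kb in the same groups. Klf2 and Egr1 stood close together in the libraries labelled Gata2, at 143 ± 43.2 and 142 ± 61.9 CPM per kb, which do not differ beyond their spread. Egr2 and Egr3 were the lowest of the 10 in each of the 6 groups, with at most 2.92 CPM per kb as a group mean. At Day2 the order changed. Ier2 stayed highest, at 108 ± 14.5 CPM per kb in libraries labelled Gata2 and 136 ± 13.9 in WT (n = 2 and 3), Ier3 came next at 26.8 ± 2.85 and 75.3 ± 3.94 CPM per kb, and Dusp1 was at 3.34 ± 0.16 and 4.66 ± 0.39 CPM per kb. In Week2 cells Klf2 was highest, at 873 ± 177 CPM per kb in libraries labelled Gata2 and 756 ± 113 in WT (n = 3 each).

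**Figure D2:**
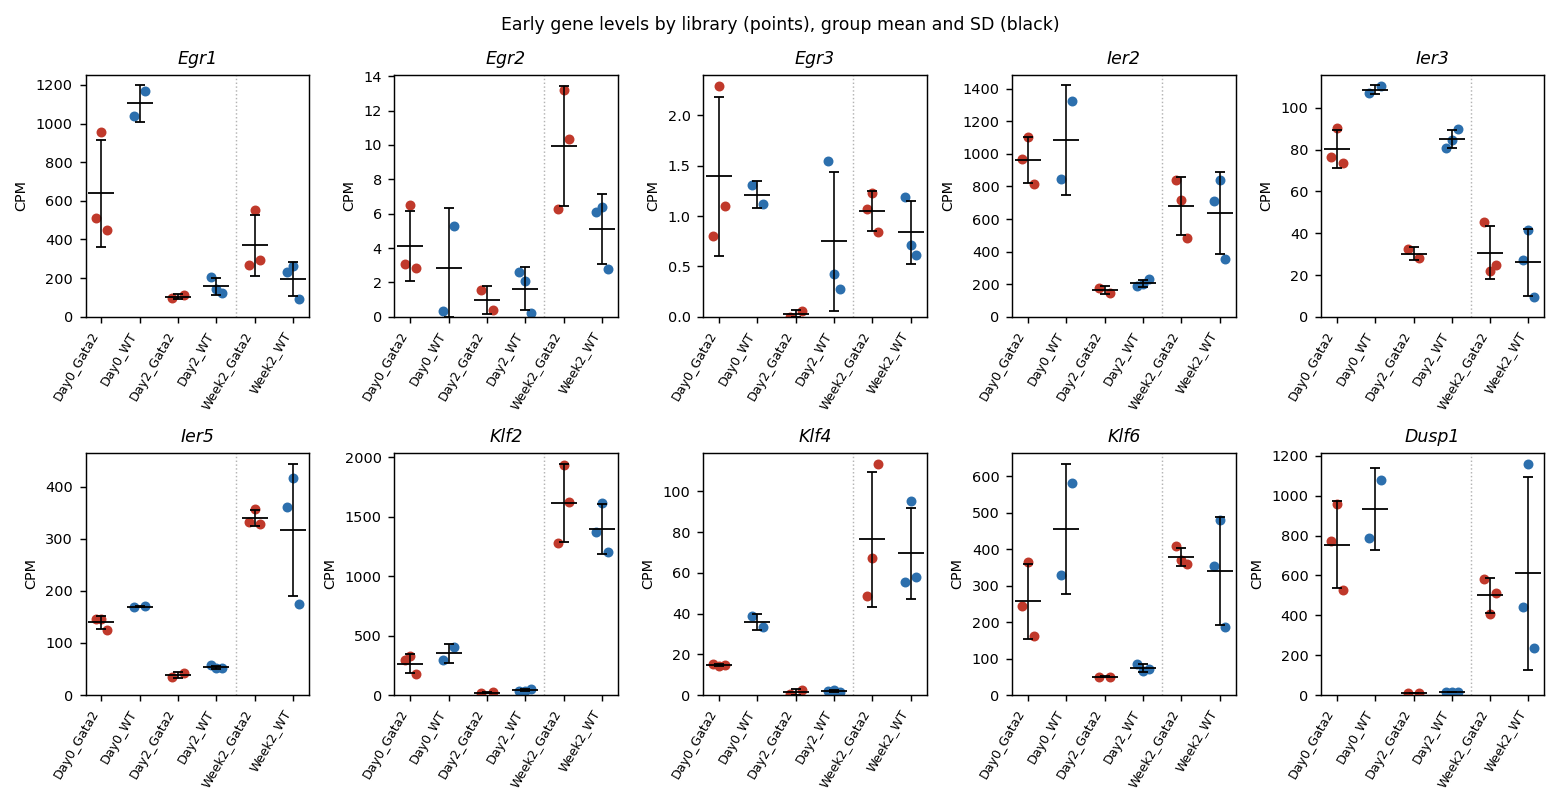
CPM of each of the 10 genes (linear axis from 0) in every library, with points for libraries and black bars for group mean and SD (lower bars stop at 0), groups labelled Gata2 in red and WT in blue. Dusp1, Klf2 and Klf4 sit near the axis at Day2, between 0.45 and 49.5 CPM, below every Day0 and Week2 library, and Ier3 at Day2 separates the 2 labels, at 28.0 and 32.6 against 80.8 to 89.7 CPM. A dotted line parts the LSK libraries from the Week2 libraries, which were scaled apart.

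The passage from Day0 to Day2 was accompanied by lower levels of most of these genes under both labels. Tested with edgeR's quasi-likelihood test across 19162 genes, 9 of the 10 fell in the libraries labelled Gata2, where 4.82% of all genes were called lower, and 7 of 10 fell in WT, where 17.9% were. The groups of libraries did not overlap for 10 of 10 genes under the Gata2 label (34.4% of all genes were lower without overlap) and for 8 of 10 in WT (26.7%). The median log2 fold change of the 10 genes was −2.58 under the Gata2 label and −2.50 in WT, against medians over all genes of −0.07 and −0.11. All 7 that fell in WT also fell under the Gata2 label. Leaving out either Day0 WT library leaves that group without a replicate, so only effect sizes are given for those fits. The WT median of the 10 genes stayed between −2.82 and −2.08 as libraries were left out in turn. It was −2.08 without the second Day0 WT library, where the group rests on the library that stands apart. The library names of Day0 and Day2 form separate runs, and the records do not say which kit, stranded or low-input, made which library. Any difference in preparation between the days could not be told apart from time, and its part was not tested.

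Dusp1, which dephosphorylates p38, JNK and ERK kinases, fell most. It had 10.7 and 11.4 CPM in the Day2 libraries labelled Gata2, against 775, 960 and 525 CPM at Day0. WT libraries had 16.1, 16.2 and 13.9 CPM at Day2, against 787 and 1077 CPM at Day0. No Day2 library came near a Day0 library, and the fall was 68.2-fold under the Gata2 label (log2 fold change −6.09, SE 0.31, edgeR adjusted p = 3.6e-05) and 60.4-fold in WT (−5.92, SE 0.26, adjusted p = 7.6e-06). Counts at Day2 were 540 to 845 reads per library, so the low level does not rest on a few reads.

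The 3 KLF members fell under both labels. Klf2 had 16.5 and 22.1 CPM at Day2 under the Gata2 label, against 293, 327 and 175 CPM at Day0. The WT values were 37.2, 34.1 and 49.5 CPM at Day2, against 294 and 406 CPM at Day0. Every Day2 library was below every Day0 library, with log2 fold changes of −3.78 (SE 0.34, edgeR adjusted p = 0.000314) under the Gata2 label and −3.12 (SE 0.29, adjusted p = 0.00024) in WT. Klf4 had 0.45 and 2.58 CPM at Day2 under the Gata2 label, against 15.2, 14.1 and 14.7 CPM at Day0. WT libraries held 1.96, 2.27 and 1.62 CPM at Day2, against 38.7 and 33.3 CPM at Day0. Again no library overlapped, and Klf4 fell by 3.27 (SE 0.62, edgeR adjusted p = 0.0114) and by 4.21 (SE 0.57, adjusted p = 0.00122) on the log2 scale under the Gata2 label and in WT. Klf6, a broadly expressed growth-restraining factor, had 48.7 and 50.7 CPM at Day2 under the Gata2 label, against 245, 365 and 161 CPM at Day0. Under the WT label it had 85.9, 67.1 and 70.3 CPM at Day2, against 330 and 582 CPM at Day0. Its log2 fold changes were −2.37 (SE 0.36, edgeR adjusted p = 0.00424) and −2.62 (SE 0.33, adjusted p = 0.000875), without overlap. The Klf6 call under the Gata2 label was lost without the first Day2 library of that label (adjusted p = 0.0664).

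Among the EGR factors, Egr1 fell and the 2 scarce members could be followed less well. Egr1 had 95.4 and 113 CPM at Day2 under the Gata2 label, against 511, 956 and 447 CPM at Day0. Among WT libraries it had 206, 142 and 124 CPM at Day2, against 1037 and 1171 CPM at Day0. The days did not overlap, and the log2 fold change was −2.62 (SE 0.36, edgeR adjusted p = 0.00278) under the Gata2 label and −2.81 (SE 0.32, adjusted p = 0.000629) in WT. Egr2, known for its part in myelination and in restraining lymphocyte activation, had 1.54 and 0.41 CPM at Day2 under the Gata2 label, against 3.07, 6.49 and 2.83 CPM at Day0. In WT the levels were 2.61, 2.07 and 0.24 CPM at Day2, against 0.34 and 5.31 CPM at Day0. The WT days overlapped, and neither difference passed (log2 fold changes −2.08, SE 1.23, edgeR adjusted p = 0.339, and −0.80, SE 1.12, adjusted p = 0.618). Without the second Day0 WT library the WT value turned to 2.29. Egr3, a relative of Egr2 that acts beside it in lymphocytes, had 0 and 3 reads at Day2 under the Gata2 label, against 40, 115 and 78 reads at Day0. WT showed 81, 21 and 14 reads at Day2, against 27 and 57 reads at Day0. Scaled by library size, its Day2 to Day0 ratio under the Gata2 label was 0.0218, with a 95% exact interval for counting error alone of 0.00446 to 0.0645, and the fall passed (edgeR adjusted p = 0.0326). That call was lost when any one of the 5 libraries labelled Gata2 was left out (adjusted p = 0.0632 to 0.185). In WT Egr3 did not pass (log2 fold change −0.69, SE 0.95, adjusted p = 0.614).

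Among the IER members, Ier2 and Ier5 fell under both labels. Ier2, a nuclear protein of loosely defined function, had 180 and 149 CPM at Day2 under the Gata2 label, against 969, 1101 and 817 CPM at Day0. In WT it had 188, 204 and 230 CPM at Day2, against 847 and 1324 CPM at Day0. It fell without overlap under both labels (log2 fold changes −2.55, SE 0.23, edgeR adjusted p = 0.00033, and −2.39, SE 0.21, adjusted p = 0.000169). Ier5, which takes part in the control of the heat shock factor HSF1, had 34.0 and 42.1 CPM at Day2 under the Gata2 label, against 146, 146 and 125 CPM at Day0. WT libraries had 56.8, 51.3 and 51.1 CPM at Day2, against 169 and 170 CPM at Day0. The days again did not overlap (−1.87, SE 0.15, edgeR adjusted p = 0.000195, and −1.68, SE 0.14, adjusted p = 0.000149).

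Ier3, a stress-induced survival gene and a known NF-kB target, was the member of this family that did not pass in WT. It had 32.6 and 28.0 CPM at Day2 under the Gata2 label, against 76.5, 90.5 and 73.6 CPM at Day0. The WT values were 80.8, 84.9 and 89.7 CPM at Day2, against 107 and 110 CPM at Day0. The days did not overlap under either label. Ier3 fell under the Gata2 label (log2 fold change −1.40, SE 0.15, edgeR adjusted p = 0.000847) and did not pass in WT (−0.35, SE 0.15, adjusted p = 0.0931). The WT value passed with RLE scaling (−0.45, adjusted p = 0.0423) and with DESeq2 (−0.45, adjusted p = 0.0135), and RLE scaling moved the WT median of all genes to −0.20.

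**Figure D3:**
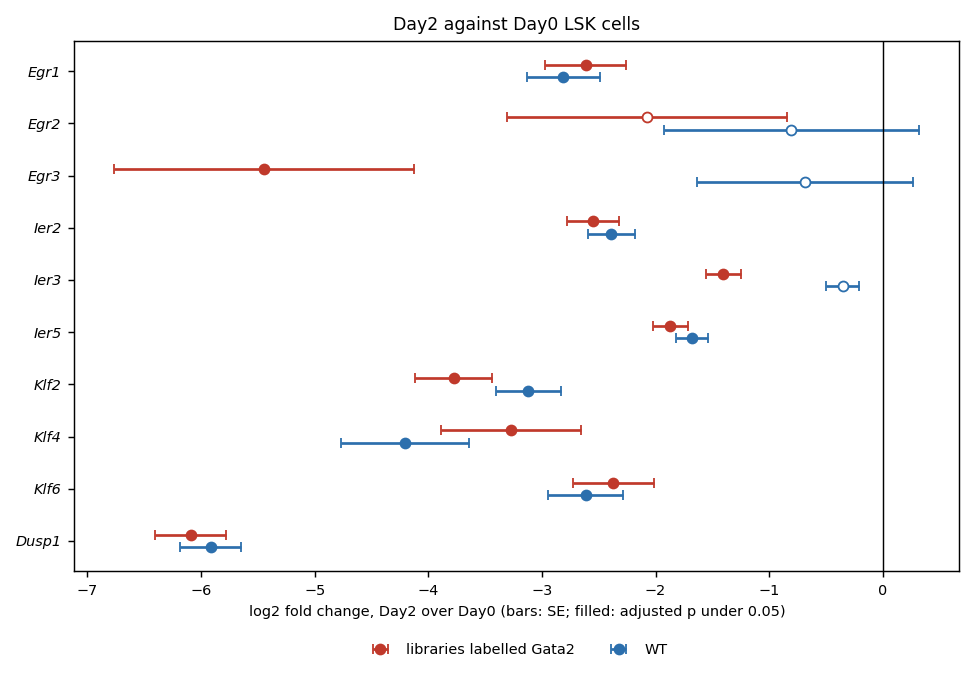
Log2 fold change of each gene at Day2 over Day0 with its SE, libraries labelled Gata2 in red above WT in blue, filled where edgeR's adjusted p was under 0.05. Dusp1 stands furthest left at −6.09 and −5.92, and Ier3 and Egr3 are filled under the Gata2 label only, Ier3 at −1.40, against −0.35 in WT.

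Several other measures moved between the days. Summed erythroid markers (6 of 6 detected in each group) were at 2.25 to 10.9 CPM at Day2 under the Gata2 label and 3.14 to 4.91 CPM in Day2 WT, against 87.3 to 180 CPM and 114 to 182 CPM at Day0, with Car1 alone at no more than 0.51 CPM in any Day2 library. Summed T and NK cell markers were at 0.65 to 1.42 CPM at Day2, against 7.64 to 15.4 CPM at Day0, with Cd3e at 0 throughout Day2. Summed B cell markers were at 18.4 to 30.3 CPM at Day2, against 55.9 to 133 CPM at Day0. Dendritic cell markers were at 103 to 161 CPM at Day2, against 460 to 582 CPM at Day0. Megakaryocyte markers ran the other way, at 1586 to 2196 CPM at Day2, against 218 to 335 CPM at Day0, as did neutrophil markers, at 612 to 1730 CPM, against 75.9 to 270 CPM. Day2 libraries held 19266 to 21944 genes with a count, against 22150 to 30564 at Day0. Summed LSK and stem cell markers were at 1398 to 1635 CPM at Day2, against 1957 to 2456 CPM at Day0, with Ly6a, which codes for Sca-1, at 19.6 to 32.4 CPM, against 56.3 to 69.4 CPM. Reads of 4 repeat-rich gene models took 2.80 to 4.39% at Day2, against 5.10 to 9.33% at Day0, and unconfirmed gene models (TEC in the annotation) took 0.0314 to 0.0702%, against 0.131 to 0.362%. The part of these shifts in the levels of the early genes was not tested, and in bulk RNA fewer cells of a type and less RNA per cell cannot be told apart.

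Genes of further lists set beside the 10 were followed over the same days. Over all genes 4.82% fell and 4.48% rose under the Gata2 label, and 17.9% fell and 11.9% rose in WT, shares beside which the counts of each list stand. Of 11 AP-1 and Nr4a genes, 8 fell and 1 rose under the Gata2 label, and 8 fell and 1 rose in WT. Their group means for Jun were 19.8 ± 0.53 CPM at Day2 under the Gata2 label, against 1987 ± 470 CPM at Day0 (SD, n = 2 and 3), and the one that rose was Fosl1. Of 26 other rapidly induced genes, 10 fell and 2 rose under the Gata2 label, and 12 fell and 4 rose in WT, where 4 of 26 higher is near the share of all genes. Zfp36, which speeds decay of AU-rich messages, averaged 51.6 ± 6.79 CPM at Day2 under the Gata2 label, against 926 ± 202 CPM at Day0, while Gem, a small GTPase, averaged 112 ± 9.71 CPM at Day2, against 39.9 ± 7.11 CPM at Day0. These lists moved in both directions, with medians of −2.47 (AP-1 and Nr4a) and −0.70 (other rapid genes) under the Gata2 label.

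Of 25 family relatives, 6 fell and 2 rose under the Gata2 label, where 4.82% and 4.48% of all genes did, and 8 fell and 1 rose in WT, where 17.9% and 11.9% did. Dusp2, a nuclear MAP kinase phosphatase, averaged 85.3 ± 8.52 CPM at Day2 under the Gata2 label, against 458 ± 53.7 CPM at Day0, and fell under both labels (edgeR adjusted p = 8.31e-05 and 1.74e-05). Dusp4, a close relative, rose under both, averaging 14.6 ± 4.32 CPM at Day2 under the Gata2 label, against 3.38 ± 1.006 CPM at Day0. Klf1, the erythroid KLF and one of the erythroid markers above, averaged 1.31 ± 0.63 CPM at Day2 under the Gata2 label, against 27.8 ± 7.75 CPM at Day0. Egr4 had no read in the Day2 libraries labelled Gata2, against 6.04 ± 1.07 CPM at Day0.

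The remaining lists were mixed. They hold 6 to 12 genes each, so their counts in WT are small numbers to set beside 17.9% of all genes lower and 11.9% higher. Of 12 ERK feedback genes, 2 fell and 3 rose under the Gata2 label, and 3 fell and 4 rose in WT. Their medians were −0.18 and 0.09. Dusp4, Dusp5 and Dusp6 are also among the family relatives, so the rise of Dusp4 is counted in both lists. Etv5, an ETS factor, averaged 65.2 ± 1.45 CPM at Day2 under the Gata2 label, against 25.3 ± 6.53 CPM at Day0, and rose under both labels (edgeR adjusted p = 0.00654 and 0.00127). Spry1, which dampens growth factor signalling, fell under both, averaging 10.9 ± 2.11 CPM at Day2 under the Gata2 label, against 23.98 ± 3.56 CPM at Day0. Of 11 SRF, ternary complex and CREB family genes, none passed under the Gata2 label by edgeR, the lowest adjusted p being 0.0775, and in WT 4 fell and 2 rose, with Srf at 96.8 ± 8.01 CPM at Day2, against 64.2 ± 7.58 CPM at Day0 (n = 3 and 2). Among 6 known KLF2 targets of lymphocytes, none passed under the Gata2 label (lowest adjusted p = 0.0531); in WT Itgb7 rose and Cd69 fell, 1 of 6 in each direction and near the shares of all genes. Of 9 heat shock genes, 3 fell and 1 rose under the Gata2 label (4.82% and 4.48% of all genes did), and 3 fell and 2 rose in WT. Hspa1b, an inducible chaperone, averaged 1.25 ± 0.38 CPM at Day2 under the Gata2 label, against 98.5 ± 38.5 CPM at Day0.

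The members moved together to different degrees across the 10 LSK libraries. Pearson's r of log2(CPM + 1) lay between 0.930 and 0.992 for pairs among Egr1, Ier2, Ier5, Klf2, Klf4, Klf6 and Dusp1. Ier3 correlated with the other members at 0.333 to 0.719, Egr3 at 0.610 to 0.807 and Egr2 at 0.333 to 0.610. These values describe libraries that share day and label. The nearest genes to Dusp1 were Zfp36 (r = 0.999), Fos (0.997) and the erythroid marker Car1 (0.996). For Egr1 the nearest was Klf6 (0.987), for Klf2 Rhoh (0.993), and for Ier3 Zfp787 (0.937), Ddit4 (0.936) and Tnfaip3 (0.921).

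The labels were then compared at each time. At Day0, 0 of the 10 genes passed edgeR's test, as did 0 of all 19162 genes. Of the 10, 4 had an unadjusted p under 0.05 (Ier3, Klf6, Egr1 and Klf4), against 13.5% of all genes. DESeq2 called 1 of the 10 (Ier3, adjusted p = 0.0477) and 417 of all 19162 genes. Klf4, Egr1, Ier3 and Ier5 were lower in every library labelled Gata2 than in either WT library, 4 of 10 where 14.2% of all genes were. Klf4 averaged 14.7 ± 0.55 CPM under the Gata2 label and 35.99 ± 3.87 CPM in WT (SD, n = 3 and 2), and the log2 fold change −1.29 had an SE of 0.52 (edgeR adjusted p = 0.351). Egr1 averaged 638 ± 277 CPM under the Gata2 label and 1104 ± 94.2 CPM in WT (−0.79, SE 0.32, adjusted p = 0.349). Klf6 libraries overlapped (−0.83, SE 0.32, adjusted p = 0.344), and its value was −0.17 without the second Day0 WT library. That library also set the sign of Dusp1, Klf2 and Ier2, which were −0.31, −0.40 and −0.17 with it and 0.13, 0.042 and 0.38 without it. Other measures also parted the Day0 labels without overlap: repeat-rich gene models took 5.10 to 5.83% of reads under the Gata2 label, against 6.51 to 9.33% in WT, 28286 to 30564 genes had a count, against 22150 to 26159, summed LSK and stem cell markers were at 2187 to 2456 CPM, against 1957 to 1965 CPM, and Cd34 was at 770 to 832 CPM, against 372 to 651 CPM. Their part in the Day0 values was not tested. Egr2 and Egr3 were the 2 genes with a positive value (0.53, SE 1.15, and 0.21, SE 0.96).

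At Day2 again 0 of the 10 genes passed edgeR's test and 0 of all genes did. Of the 10, 4 had an unadjusted p under 0.05 (Ier3, Klf2, Egr3 and Ier5), against 5.58% of all genes. DESeq2 called 2 of the 10 (Ier3 and Egr3, the latter with 3 reads in all under the Gata2 label) and 144 of all 19162 genes. All 10 log2 fold changes were negative, with a median of −0.59 against −0.00 over all genes. For 8 of the 10, Egr2 and Klf4 excepted, every library labelled Gata2 was below every WT library, where 11.1% of all genes showed this. The Klf4 value turned to 0.51 without the first Day2 library labelled Gata2.

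Ier3 had the lowest p of the 10. The values given above put both libraries labelled Gata2 below 33 CPM and all 3 WT libraries above 80 CPM, with means of 30.3 ± 3.22 CPM under the Gata2 label and 85.1 ± 4.45 CPM in WT. The log2 fold change was −1.49 (SE 0.15) and edgeR's adjusted p 0.0572, just outside the threshold of 0.05. It passed with no low count filter (edgeR adjusted p = 0.00334), with DESeq2 (3.95e-17) and with the Day2 groups fitted alone by edgeR (0.0449). It did not pass with RLE scaling, where 0 of all genes did, or with the replicate block. Without the first or the second Day0 WT library, which leaves 1 library in that group, the Ier3 value was −1.48 or −1.45. Over its 15 alternatives the value stayed between −1.50 and −1.38, and the adjusted p ran up to 0.483. Klf2 averaged 19.3 ± 3.97 CPM under the Gata2 label and 40.3 ± 8.13 CPM in WT (−1.06, SE 0.29, edgeR adjusted p = 0.663). Egr3, with 3 reads in all under the Gata2 label against 116 in WT, had a size-adjusted ratio of 0.0388 (95% exact interval 0.00789 to 0.116 for counting error only) and did not pass (adjusted p = 0.671). Ier5 averaged 38.1 ± 5.73 CPM under the Gata2 label and 53.1 ± 3.22 CPM in WT (−0.48, SE 0.15, adjusted p = 0.736). Dusp1, despite the size of its fall over time, differed by −0.48 (SE 0.24, adjusted p = 0.924) between the labels. Mitochondrial genes took 1.41% and 1.22% of reads in the Day2 libraries labelled Gata2, against 1.006 to 1.11% in WT, and summed megakaryocyte markers were at 1586 and 1617 CPM, against 1782 to 2196 CPM; their part in the result was not tested.

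Whether the label effect changed between the days was tested as the difference of the 2 effects. None of the 10 genes passed by edgeR, and 0 of all genes did. Of the 10, 2 had an unadjusted p under 0.05 (Ier3 and Egr3), against 10.4% of all genes. DESeq2 called 1 of the 10 (Ier3, adjusted p = 0.00531) and 216 of all 19162 genes. The Ier3 difference was −1.05 (SE 0.21, edgeR adjusted p = 0.465). Leaving out the second Day0 WT library leaves 1 library in that group, the one that stands apart. With it left out Ier3 was −1.22 and Ier2 −0.67. In the fit of all LSK libraries Egr3, whose fitted value rests on 3 Day2 reads, differed by −4.76 (SE 1.59, edgeR adjusted p = 0.465). Klf2 differed by −0.66 (SE 0.40, edgeR adjusted p = 0.568).

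**Figure D4:**
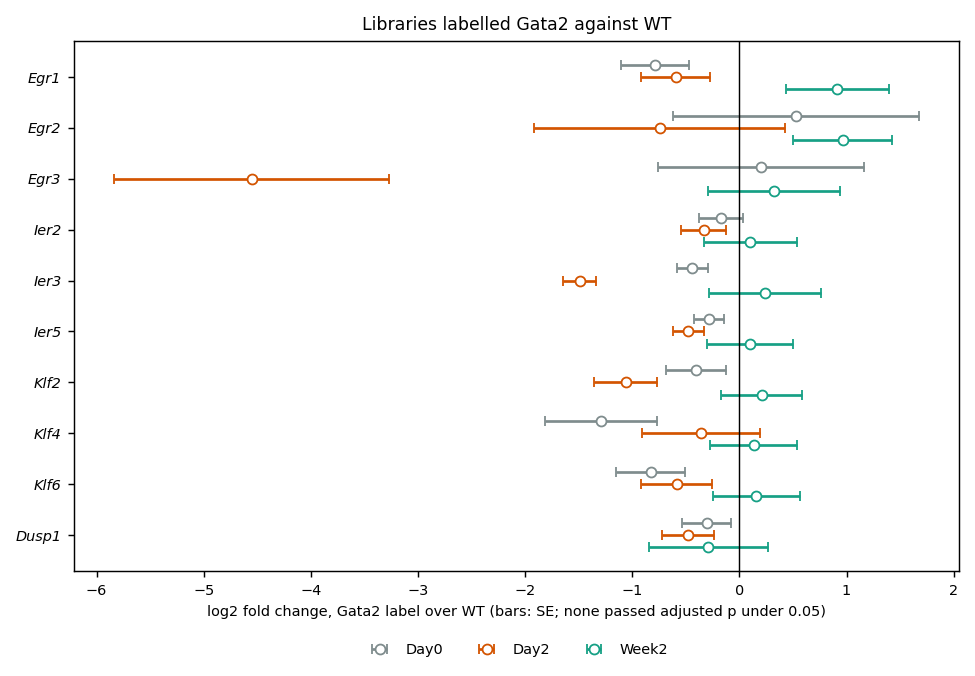
Log2 fold change of each gene in libraries labelled Gata2 over WT with its SE, for Day0, Day2 and Week2 in grey, orange and green; no value passed edgeR's adjusted p of 0.05. All 10 Day2 values lie left of 0, Ier3 at −1.49 with a short bar and Egr3, with 3 reads under the Gata2 label, at a fitted −4.55 with a long one, and 9 of 10 Week2 values lie right of 0.

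In the CD45.2 cells of Week2, 0 of the 10 genes passed edgeR's test across 36485 genes, 0 of all genes did, 0 of the 10 had an unadjusted p under 0.05 (0.238% of all genes did), and DESeq2 called 0 of the 10. The values were positive for 9 of 10 genes, with a median of 0.18 against 0.00 over all genes. The median of the 10 ran from −0.053 without the third Week2 WT library to 0.51 without the second. Egr1 had 267, 551 and 292 CPM in the libraries labelled Gata2, against 231, 264 and 94.1 CPM in WT. It was the only one of the 10 whose groups did not overlap, as held for 0.674% of all genes on the higher side. Its log2 fold change was 0.91, with an SE of 0.48 and an edgeR adjusted p of 0.999988. When all 16 libraries were scaled together the Egr1 groups overlapped, at 243, 469 and 365 CPM under the Gata2 label, against 204, 295 and 106 CPM in WT. Egr2 had 6.26, 13.2 and 10.3 CPM under the Gata2 label, against 6.13, 6.41 and 2.77 CPM in WT (0.96, SE 0.46, with the same adjusted p), with overlap. Dusp1 had 580, 405 and 514 CPM under the Gata2 label, against 440, 1158 and 235 CPM in WT, and was the 1 gene with a negative value (−0.29, SE 0.55).

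The third Week2 WT library had the lowest level of the 6 Week2 libraries for 9 of the 10 genes, Klf4 being the exception, and for 8 of 10 when the libraries were scaled by their totals alone; it was singled out after its values were seen. Without it the log2 fold changes of Ier2, Ier3, Ier5 and Klf6 turned to −0.18, −0.16, −0.19 and −0.13. Week2 libraries also differed widely in makeup: summed erythroid markers ran from 20.4 to 2304 CPM under the Gata2 label and from 24.2 to 6927 CPM in WT, and neutrophil markers from 17577 to 86963 CPM and from 17390 to 77392 CPM. The part of these differences in the values was not tested.

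Week2 and LSK levels were also set side by side on a scaling of all 16 libraries together. Klf2, Klf4 and Ier5 were higher in every Week2 library than in every Day0 LSK library. The share of all genes that part in this way was not counted, so the separation cannot be read as particular to these genes. Klf2 ran from 1168 to 2030 CPM at Week2, against 176 to 405 CPM at Day0. Klf4 ran from 44.6 to 142 CPM, against 13.97 to 37.2 CPM, and Ier5 from 197 to 466 CPM, against 126 to 170 CPM. Ier3 was lower at Week2 than in any Day0 library, at 10.4 to 46.4 CPM, against 73.9 to 110 CPM. The other genes overlapped with Day0. The Week2 libraries hold another cell population, so time and cell type cannot be told apart, and no test was made.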

How the data were processed

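RNA of 16 mouse bone marrow libraries was given as whole-number read counts per gene, as deposited by the authors. Reads were processed with Trimmomatic 0.38 and STAR 2.5.2b on mm10, per the submitters' processing notes. The counting program, strand setting and annotation are named by none of the sources used here. RNA was column-purified and libraries made with a stranded or a low-input kit, per the labels' protocols, with no record of which sample had which. Columns were matched to samples by name, and 0 columns belonged to other samples. GENCODE M21 (GRCm38, that is mm10) gave symbols, positions and exon lengths.

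Counts were tested in R 4.3.3 by edgeR 4.0.16 (filterByExpr, then TMM scaling, robust quasi-likelihood test, Benjamini-Hochberg adjustment over all genes, threshold 0.05). The 10 LSK libraries were fitted as 4 groups and the 6 Week2 libraries alone, giving 6 comparisons; all 10 genes passed the low count filter in both fits. The scripts were tested on simulated counts. Alternatives were RLE scaling, no low count filter, DESeq2 1.42.0, only the groups compared, a replicate block and each library left out. Named genes were the 10 members, the called genes of 7 further lists (or the 3 of lowest p), Gata2, and the 3 genes nearest each member by correlation among genes of at least 5 CPM, with a pseudocount of 1. The members and lists were chosen with earlier results of these data known. Intervals take in counting error alone, because reads were pooled over the libraries of a group, which leaves out the spread between libraries. These reads carry no molecular identifiers, so copies of a molecule cannot be told apart, and the intervals do not allow for them.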

Additional observations from a re-analysis of the deposited data

Results flagged for a closer look

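At Week2 all Egr1 values under the Gata2 label lay above the WT values (log2 fold change 0.91), and at Day0 (−0.79) and Day2 (−0.60) all lay below them. The directions are opposite and the groups do not overlap within a time, which is why the gene is listed here. The difference between the times was not tested, since the Week2 libraries hold CD45.2 cells and were fitted apart from the LSK libraries. None of the 3 values passed edgeR's test (adjusted p = 0.349 at Day0, 0.949 at Day2 and 0.999988 at Week2), and the Week2 groups overlapped when all 16 libraries were scaled together.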

How the results depend on the processing

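Of the values for single genes, 795 kept direction and side of the threshold, 12 newly passed, 7 no longer passed and 26 changed sign. Members called at Day0 were 1 with DESeq2 (0 in each left-out fit). At Day2 they were 1 with no low count filter, 2 with DESeq2 and 1 with only the Day2 groups fitted (0 to 1 with a library left out). For the difference of effects they were 1 with DESeq2 (0 to 2), over time 7 in WT (7 to 7) and 9 under the Gata2 label (7 to 9), and at Week2 0 (0 to 0). The median ran from −2.82 to −2.08 over time in WT and from −0.62 to −0.059 for the difference with 1 library left out, moving most without the second Day0 WT library (−2.08 and −0.62). Leaving out a Day0 WT library, or a Day2 library labelled Gata2, leaves 1 library in that group. The cause of each change was not tested.

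Calls over all genes varied more. They were 0 at Day0, 1 with no filter, 417 with DESeq2 and 0 to 8655 with a library left out (8655 without the second Day0 WT library). At Day2 they were 0, 22 with no filter, 144 with DESeq2, 11 with only the groups compared, 1 with the replicate block and 0 to 48. Over time in WT they were 5720, 1199 with only the groups compared, 2747 with the replicate block and 3191 to 12386. Under the Gata2 label they were 1782, 3471 with DESeq2, 5676 with only the groups compared, 745 with the replicate block and 499 to 4863. For the difference they were 0, 2 with no filter, 216 with DESeq2 and 0 to 6733. At Week2 they were 0, 1 with DESeq2, 12 with the replicate block and 0 to 4.

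Same-numbered libraries gave no uniform sign of pairing. Their deviations from the group means correlated at −0.08 to 0.09 in LSK cells and at 0.75, −0.76 and 0.55 at Week2. With so few libraries per group this check cannot settle whether the samples were paired. With the replicate block Egr3 over time under the Gata2 label no longer passed (adjusted p = 0.0823), Dusp1 at Week2 turned to 0.033, and the differences of Klf6 and Egr1 turned to −0.087 and −0.15.

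With 1 library left out at a time, these log2 fold changes, none of which had passed, changed sign. At Day0 they were Dusp1 −0.54 to 0.13, Egr2 −0.36 to 3.79, Egr3 −0.37 to 0.45, Ier2 −0.46 to 0.38 and Klf2 −0.61 to 0.042. At Day2 it was Klf4 −2.09 to 0.51. Over time in WT it was Egr2 −1.72 to 2.29. For the difference of effects they were Dusp1 −0.57 to 0.082, Egr1 −0.043 to 0.66, Ier2 −0.67 to 0.14, Klf4 −0.81 to 1.69 and Klf6 −0.37 to 0.63. At Week2 they were Dusp1 −0.67 to 0.64, Ier2 −0.18 to 0.42, Ier3 −0.16 to 0.85, Ier5 −0.19 to 0.40, Klf4 −0.25 to 0.46 and Klf6 −0.13 to 0.55.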
